A study of Mus musculus with 8 samples.

Results

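The interleukin-6 (IL-6) family was followed in tendon stem cells (TSCs) through 10 genes of the deposited expression table, which listed 19301 genes. The genes were the rows named for 4 cytokines (Il6, Il11, Lif and Clcf1), 4 receptor chains (Il6st, Il6ra, Lifr and Osmr), the transcription factor gene Stat3 and the feedback inhibitor gene Socs3, and all 10 were found. The cells were primary TSCs of C57BL/6J mice, isolated from the patellar tendon by collagenase digestion, and each library was a sample of its own. Of the 8 libraries, 4 came from cells kept for 4 days in high fat, high glucose medium (HFHG, high glucose with 300 µM palmitic acid) and 4 from cells kept for the same time in low glucose medium (LG, 5.5 mM glucose with the DMSO vehicle and no palmitic acid). No genetic change is given for either group. The comparison asks how a medium that imitates the metabolic state of type II diabetes alters the mRNA of these cells. The paper calls the 4 samples of a group biological replicates, but the sources used here do not tie a library to an animal or a culture, so the p-values measure the spread between these samples. Glucose and palmitic acid were changed together, so their shares in a difference cannot be told apart.

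IL-6 family cytokines are small secreted proteins that mostly signal through gp130, the shared receptor chain encoded by Il6st. A cytokine first meets a chain of its own, such as IL-6Rα for IL-6, or pairs gp130 with LIFR or OSMR, and the assembled complex activates JAK kinases, which phosphorylate STAT3. STAT3 then switches on its target genes, among them Socs3, whose protein binds gp130 and damps the signal. In connective tissue the family is known for its part in inflammation, wound repair and ectopic bone formation.

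Upstream sequences are shown for Il6, Lif and Socs3, because Il6 rose while the other ligand and the feedback inhibitor fell. Each is the 250 bases before the RefSeq start site (GRCm38.p6), read 5′ to 3′ on the strand of the gene, with capitals for the matches to the motifs named after them. The Il6 stretch lies at chr5:30012864-30013113 on the plus strand, the Lif stretch at chr11:4257318-4257567 on the plus strand, and the Socs3 stretch at chr11:117969367-117969616 on the minus strand.
Il6: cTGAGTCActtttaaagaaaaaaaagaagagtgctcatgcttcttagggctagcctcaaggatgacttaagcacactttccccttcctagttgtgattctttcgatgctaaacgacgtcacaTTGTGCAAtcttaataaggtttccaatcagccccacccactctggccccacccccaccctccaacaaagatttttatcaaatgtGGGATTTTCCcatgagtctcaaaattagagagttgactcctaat
Lif: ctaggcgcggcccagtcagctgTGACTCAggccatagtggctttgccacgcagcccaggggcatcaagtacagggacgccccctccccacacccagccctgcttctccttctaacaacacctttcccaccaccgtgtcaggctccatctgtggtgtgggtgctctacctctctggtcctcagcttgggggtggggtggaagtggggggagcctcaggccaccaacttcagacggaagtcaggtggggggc
Socs3: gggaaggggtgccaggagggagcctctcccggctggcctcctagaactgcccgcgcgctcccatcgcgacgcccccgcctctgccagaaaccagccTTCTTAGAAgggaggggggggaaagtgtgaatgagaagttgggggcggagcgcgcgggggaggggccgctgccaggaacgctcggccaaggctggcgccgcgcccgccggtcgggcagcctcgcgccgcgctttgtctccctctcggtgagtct

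The motifs searched on both strands were TTCNNNGAA for STAT factors, TGANTCA for AP-1, TTGCNNAA for C/EBP, TGACGTCA for CRE, and the 10-letter NF-kB motif, and no match overlapped another. In Il6, the capitals mark an AP-1 match 249 to 243 bases before the start, a C/EBP match 128 to 121 bases before it, on the opposite strand, and an NF-kB match 44 to 35 bases before it. Lif held an AP-1 match at 228 to 222 bases, and Socs3 held a STAT match, TTCTTAGAA, at 154 to 146 bases. Among all 32851 RefSeq promoters of this length, 7.02% held the STAT motif, 6.75% the AP-1 motif, 9.56% the C/EBP motif, 1.41% the NF-kB motif and 1.55% the CRE motif. RefSeq promoters were matched for 9 of the 10 genes, with 11 start sites in all. The only other match was an AP-1 motif 98 to 92 bases before the second start of Il11. The matches describe letters in these windows, and binding was not measured.

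Expression was deposited as FPKM, reads divided by gene length and by library depth, so levels of different genes can be compared. The FPKM steps gave back whole reads for all 19301 genes, with library totals of 35385644 to 37362725 reads in HFHG and 34308108 to 36308533 in LG. The 10 genes had between 137 and 21525 reads in a library. Group differences were tested with limma on log2(FPKM + 0.1) over the 11710 genes that reached an FPKM of 0.5 in 4 or more libraries, and a call is a Benjamini-Hochberg adjusted p below 0.05 over all of them. Fold changes are HFHG minus LG on this scale, where the added 0.1 pulls the values of scarce genes toward 0. The exact two-sided permutation test of single genes over the 70 arrangements of 4 against 4 libraries cannot go below p = 0.0286.

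The culture condition moved much of the transcriptome. Of the genes tested, 64.8% were called in either direction, with 34.0% higher and 30.8% lower in HFHG, and 59.2% had group values that did not overlap (31.1% with HFHG above LG and 28.1% with HFHG below). Against this background, 9 of the 10 genes were called and the same 9 did not overlap between groups. Il6, Il6st and Il6ra were higher in HFHG, and Il11, Lif, Clcf1, Lifr, Osmr and Socs3 were lower. Stat3 was not called. A change of more than 2-fold with an unadjusted p below 0.05, the threshold in the study's methods, was met by 5.33% of the genes tested and by 0 of the 10. The median log2 fold change of the 10 genes was -0.29, beside 0.017 over all genes tested. The median size of the log2 fold change, whatever its sign, was 0.37 for the 10 genes and 0.25 over all genes tested. In bulk RNA, fewer cells that express a gene and less of its mRNA in each cell cannot be told apart. The first 2 principal components held 81% and 4.18% of the variance of the 8 libraries; the first separated the groups and the second set LG replicate 4 apart.

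**Figure D1:**
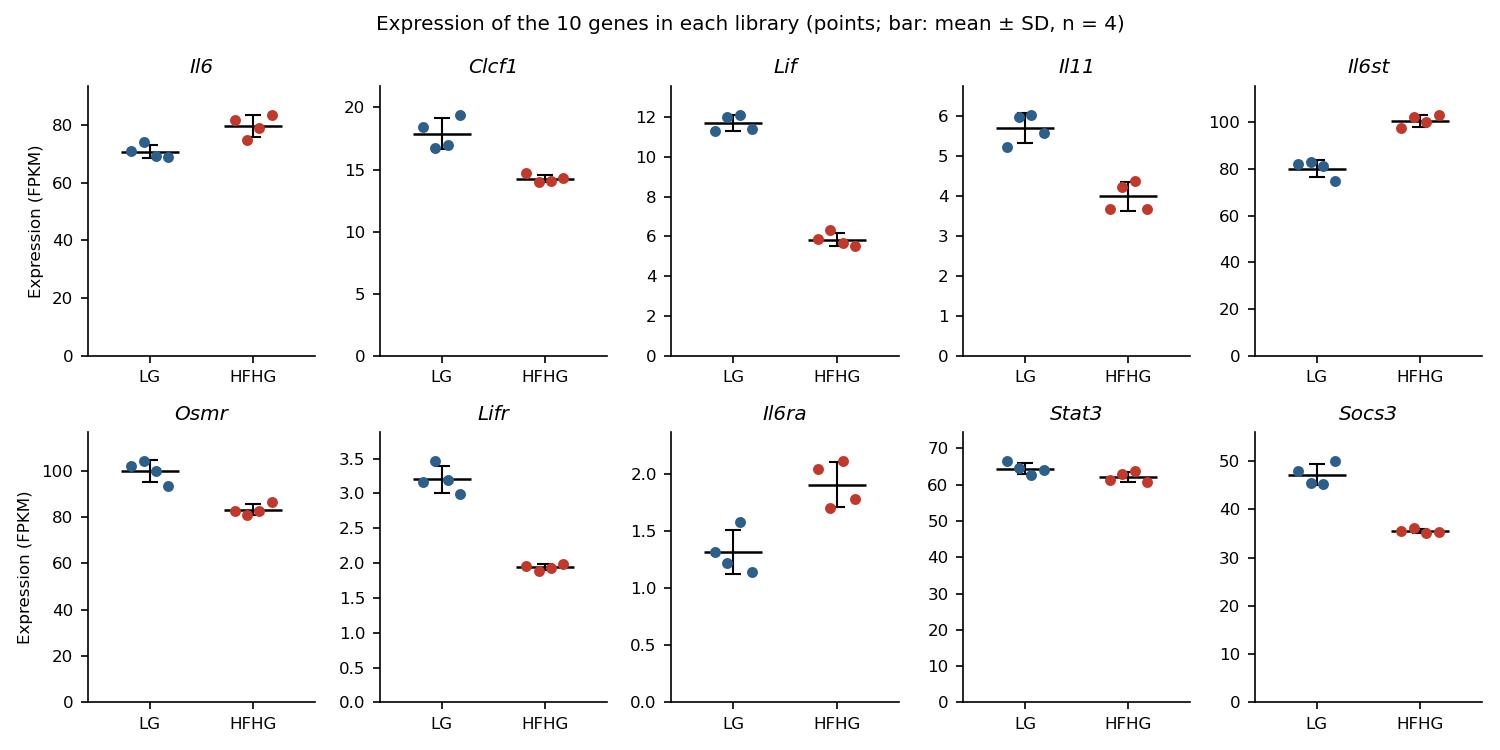
Expression in FPKM (y axis, from 0) of each of the 10 genes in the LG and HFHG libraries (x axis). Points are libraries and bars are the mean ± SD of 4; the groups overlap for Stat3 and are apart for the other 9 genes.

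Among the ligands, Il6 rose slightly while Lif, Il11 and Clcf1 fell. Il6 (chromosome 5, 30013114 to 30019981, plus strand, GRCm38) encodes the cytokine that gives the family its name. Its FPKM was 81.9, 74.7, 78.8 and 83.5 in the HFHG libraries, in the order of replicates 1 to 4, and 71.0, 74.1, 69.1 and 69.0 in the LG libraries. The groups were apart by a narrow gap, between HFHG replicate 2 at 74.7 and LG replicate 2 at 74.1. The means were 79.7 ± 3.86 (SD, n = 4) and 70.8 ± 2.38 (SD, n = 4), a log2 fold change of 0.17 (95% interval 0.09 to 0.25, limma adjusted p 0.00141). Of the 9 genes called, Il6 moved the least, yet it was by far the most abundant of these ligands in both media.

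Lif encodes leukemia inhibitory factor, the ligand of LIFR with gp130, and showed the largest change of the 10 genes. The gene lies on chromosome 11 at 4257557 to 4272514, plus strand. Its FPKM was 5.88, 6.30, 5.67 and 5.51 in HFHG and 11.3, 12, 12.1 and 11.4 in LG. Every HFHG library was far below every LG library. The mean fell from 11.7 ± 0.429 to 5.84 ± 0.341 (SD, n = 4 each), a change on the log2 scale of -0.99 (95% interval -1.10 to -0.88, limma adjusted p 4.61e-09). A log2 fold change of this size or larger, in either direction, was found for 5.46% of the genes tested.

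Il11 encodes interleukin-11, a ligand of IL-11Rα with gp130 known for its part in fibrosis and bone turnover (chromosome 7, 4772373 to 4782859, minus strand). It measured 3.68, 4.21, 4.38 and 3.68 FPKM in HFHG and 5.22, 5.98, 6.02 and 5.56 in LG. All HFHG libraries were lower, with 184 to 216 reads each against 245 to 297. Il11 had a log2 fold change of -0.51 (SE 0.0749, limma adjusted p 6.79e-05). Clcf1, which encodes cardiotrophin-like cytokine factor 1, lies on chromosome 19 at 4214238 to 4223490, plus strand. Its FPKM was 14.7, 14.0, 14.1 and 14.3 in HFHG and 18.4, 16.7, 17.0 and 19.4 in LG. The HFHG libraries were close to each other and all below LG, with a log2 fold change of -0.32 (SE 0.0485, limma adjusted p 8.02e-05). In the GENCODE M21 annotation a second gene model on the same strand shares 9134 bases with the Clcf1 span, so reads of Clcf1 could also belong to it.

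The mix of ligand mRNA therefore differed between the media. Il6 made up 76.8% ± 1.17 of the summed FPKM of these 4 ligands in HFHG and 66.7% ± 1.11 in LG (SD, n = 4 each). The share of Lif was 5.64% ± 0.505 in HFHG and 11% ± 0.439 in LG. The sizes of these shares rest on the gene lengths used. Within a library, Il6 stood at 11.9 to 15.2 times Lif in HFHG and at 5.69 to 6.29 times in LG. The pairs of genes for such ratios were chosen after the values were seen, and where both genes already separated the groups in opposite directions the ratio had to separate them too, so the ratios are given as a description with no test.

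The receptor chains also moved in opposite directions. Il6st, which encodes gp130, lies on chromosome 13 at 112464070 to 112510086, plus strand. Its FPKM was 97.2, 102, 100.1 and 103 in HFHG and 81.9, 82.7, 81.0 and 74.8 in LG. All HFHG libraries were higher, and LG replicate 4 was the lowest of its group. The mean rose from 80.1 ± 3.62 to 101 ± 2.64 (SD, n = 4 each), a change on the log2 scale of 0.33 (95% interval 0.26 to 0.41, limma adjusted p 2.73e-06).

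Osmr encodes the oncostatin M receptor chain, which pairs with gp130 (chromosome 15, 6813577 to 6874969, minus strand). It measured 82.7, 80.7, 82.7 and 86.4 FPKM in HFHG and 102, 104, 99.96 and 93.2 in LG. The HFHG libraries were all lower. LG replicate 4 was again the lowest of its group, which here put it nearest to HFHG, whereas for Il6st it was the farthest. Its log2 fold change was -0.26 (SE 0.0348, limma adjusted p 2.81e-05). As a result, the order of these abundant chains by FPKM turned around. Il6st exceeded Osmr in all 4 HFHG libraries, by a ratio of 1.18 to 1.27, and lay below it in all 4 LG libraries, at 0.797 to 0.811. The lengths behind these values were 5708 bases for Il6st and 5069 for Osmr, beside 5207 and 5487 for the nearest transcripts. Which chain leads within a medium rests on these lengths, and the change of the ratio between the media does not.

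Lifr, the LIF receptor chain, is on chromosome 15 at 7090614 to 7197489, plus strand. Its FPKM was 1.96, 1.89, 1.93 and 1.99 in HFHG and 3.16, 3.46, 3.20 and 2.99 in LG. Every HFHG library was lower, as with its ligand Lif. The mean fell from 3.20 ± 0.195 to 1.94 ± 0.0392 (SD, n = 4 each), a change on the log2 scale of -0.69 (95% interval -0.85 to -0.54, limma adjusted p 2.56e-06). There was thus 51.9 ± 1.76 times as much Il6st as Lifr in HFHG and 25.0 ± 0.856 times as much in LG (SD, n = 4 each).

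Il6ra encodes IL-6Rα, the chain that binds IL-6 before gp130 joins and that can also be shed into the medium. It lies on chromosome 3 at 89864059 to 89913196, minus strand. Its FPKM was 2.04, 1.70, 2.11 and 1.78 in HFHG and 1.32, 1.22, 1.58 and 1.14 in LG. The gene was low in both groups, with 203 to 257 reads in an HFHG library and 137 to 189 in an LG library, and the groups were apart by the gap between 1.70 and 1.58. The log2 fold change was 0.51 (95% interval 0.26 to 0.76, limma adjusted p 0.00166), the widest interval of the 10 genes. The ratio of Il6st to Il6ra overlapped between groups, at 47.3 to 60.2 in HFHG and 51.3 to 68.0 in LG.

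**Figure D2:**
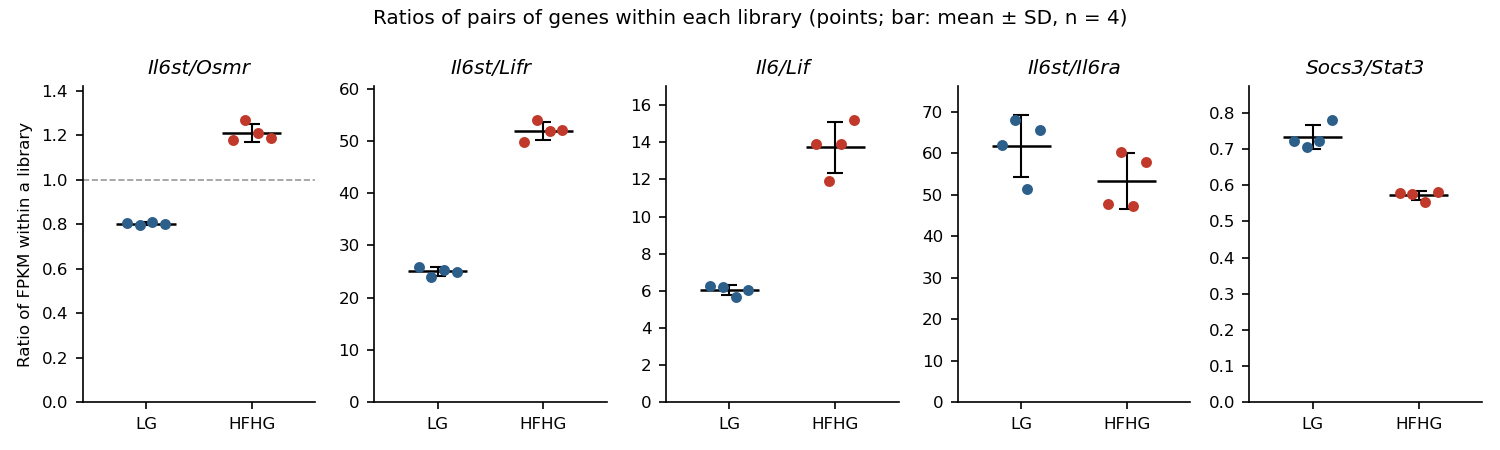
Ratio of the FPKM of a pair of genes within each library (y axis, from 0) in LG and HFHG (x axis). Points are libraries, bars are the mean ± SD of 4, and the dashed line marks equal FPKM of Il6st and Osmr; the groups overlap only for Il6st over Il6ra among the 5 ratios drawn.

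Downstream of the receptors, Socs3 fell and Stat3 was not called. Stat3 encodes the main transcription factor of the family and lies on chromosome 11 at 100885098 to 100939540, minus strand. Its FPKM was 61.2, 62.8, 63.7 and 60.7 in HFHG and 66.4, 64.6, 62.7 and 63.9 in LG. HFHG replicate 3 lay above LG replicate 3, so the groups overlapped. The log2 fold change was -0.05 (95% interval -0.11 to 0.01, limma adjusted p 0.113, exact permutation p = 0.0857). With median-ratio scaling of the libraries it was -0.09 and passed the test (limma adjusted p 0.0150), and with every library scaled to the same sum it was 0.01. Phosphorylation of STAT3, the step that activates it, is not read by mRNA. The end of Stat3 shares 72 bases with Stat5a on the opposite strand.

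Socs3, on chromosome 11 at 117966079 to 117970047, minus strand, measured 35.4, 36.1, 35.1 and 35.3 FPKM in HFHG. In LG it measured 47.9, 45.5, 45.3 and 49.9. The HFHG libraries were nearly equal and all below LG. The mean fell from 47.1 ± 2.19 to 35.5 ± 0.432 (SD, n = 4 each), a change on the log2 scale of -0.41 (95% interval -0.48 to -0.33, limma adjusted p 4.04e-07). Relative to Stat3 in the same library, Socs3 stood at 0.552 to 0.581 in HFHG and at 0.704 to 0.780 in LG.

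**Figure D3:**
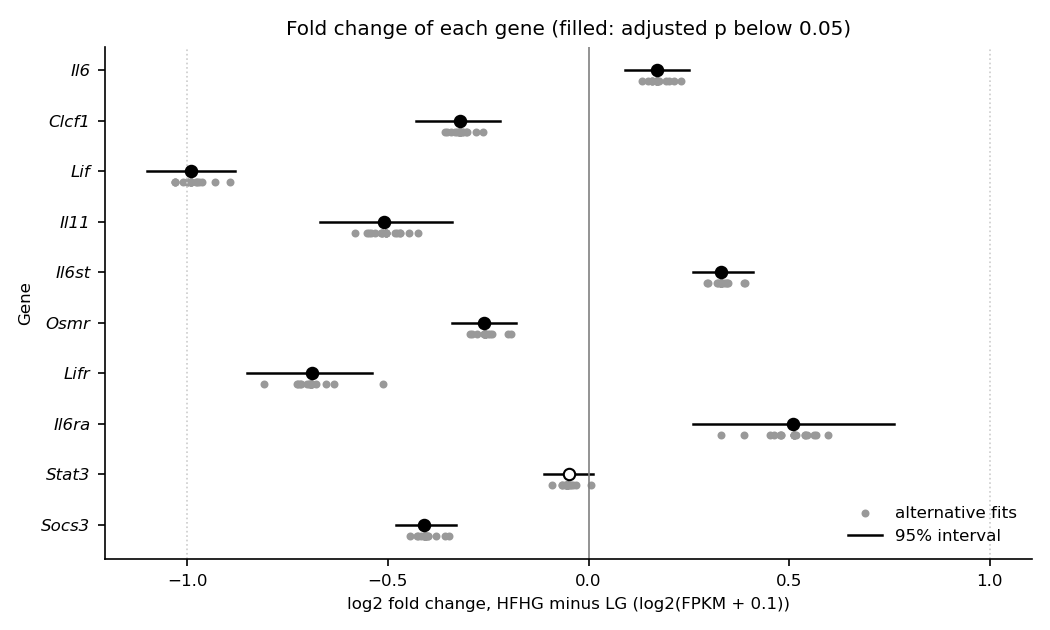
The log2 fold change of each of the 10 genes (x axis, HFHG minus LG on log2(FPKM + 0.1); genes on the y axis) with its 95% interval (black line) and its values in 19 alternative fits (grey points). Dotted lines mark a 2-fold change; Lif at -0.99 lies next to the lower one, and the interval of Stat3 spans 0.

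By mean FPKM, the genes formed a graded series, and their order rests on the gene lengths used. In LG the order was Osmr, Il6st, Il6, Stat3, Socs3, Clcf1, Lif, Il11, Lifr and Il6ra, from 99.6 to 1.31 FPKM on average, and no neighbours in this order overlapped. In HFHG the order was Il6st, Osmr, Il6, Stat3, Socs3, Clcf1, Lif, Il11, Lifr and Il6ra, from 101 to 1.91 FPKM. There Osmr overlapped with Il6, and Lifr with Il6ra. Lifr and Il6ra were thus the scarcest of the 10 genes in both media, while Il6st and Osmr were the most abundant receptor chains.

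The rest of the family was read from lists of known genes. Of 8 other ligands and ligand partners, 5 were tested, of which 1 was higher, 2 were lower and 2 were not called. The share called was 60.0%, near the 64.8% of all genes tested. Osm, the gene of oncostatin M, the ligand of OSMR, measured 0.561, 0.385, 0.481 and 0.717 FPKM in HFHG and 0.993, 1.03, 1.32 and 1.49 in LG. It was near the lower limit of the test in both groups, with 26 to 50 and 65 to 101 reads, and lower in every HFHG library (log2 fold change -1.05, limma adjusted p 0.000201). Cntf, the ciliary neurotrophic factor gene, fell, with 0.830 to 0.985 FPKM in HFHG and 1.19 to 1.74 in LG (log2 fold change -0.68, limma adjusted p 0.00029). Of the other receptor genes, 2 of 5 were tested. Il11ra1, the IL-11 receptor chain, rose from 26.0 ± 0.712 to 34.8 ± 2.02 FPKM (log2 fold change 0.42, limma adjusted p 1.82e-06) while its ligand Il11 fell. Il11ra1 has a near-identical copy, Il11ra2, at 0.0435 FPKM on average in LG and 0.128 in HFHG, and reads may have been split between them. Cntfr was the tested receptor gene that was not called.

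Of the other JAK and STAT genes, 9 of 10 were tested, with 3 higher, 3 lower and 3 not called, a share of 66.7% beside the 64.8% of all genes. Jak1, the kinase on which gp130 signalling mostly depends, had the largest change. Its FPKM was 74.3, 73.2, 73.5 and 75.1 in HFHG and 138, 140.4, 140.1 and 131 in LG. The HFHG libraries sat within a narrow band far below LG, and the log2 fold change was -0.89 (95% interval -0.95 to -0.83, limma adjusted p 2.6e-11). Stat2, a transcription factor of type I interferon signalling, fell, with 29.3 to 30.7 FPKM in HFHG and 35.9 to 37.4 in LG (log2 fold change -0.28, limma adjusted p 2.57e-06). Tyk2, a JAK family kinase, passed narrowly with overlapping groups (5.43 ± 0.513 against 4.75 ± 0.302 FPKM, limma adjusted p 0.0436), and the call was lost in 9 of 19 alternative fits. Stat5a, named after its values were seen, was at 4.88 to 5.16 FPKM in HFHG and 4.29 to 4.71 in LG (limma adjusted p 0.0423), and 1 gene of the list was called higher without HFHG replicate 2, HFHG replicate 4 or LG replicate 3. Jak2 had a log2 fold change of 0.07 (95% interval -0.05 to 0.19) and was chosen after its values were seen.

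Of the 6 adaptors and shedding proteases, 5 were higher and 1 was lower, beside 34.0% higher and 30.8% lower among all genes tested. Gab1, a docking protein of the MAP kinase branch, rose from 0.701 ± 0.0359 to 1.32 ± 0.103 FPKM (log2 fold change 0.83, limma adjusted p 1.47e-05). Sos1 and Grb2, which link receptors to RAS, rose by log2 fold changes of 0.33 and 0.28. Adam17, a protease that sheds IL-6Rα, fell from 31.4 ± 0.651 to 25.0 ± 0.960 FPKM (log2 fold change -0.33, limma adjusted p 3.59e-06). Adam10, the other protease of the list, named after its values were seen, rose from 27.3 ± 0.870 to 30.7 ± 1.02 FPKM (log2 fold change 0.17, limma adjusted p 0.000996).

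Of the 12 tested negative regulators other than Socs3, 7 were higher, 2 lower and 3 not called, a share of 75.0% called beside 64.8% of all genes, of which 34.0% were higher. Cish, a SOCS family gene, measured 1.70, 1.83, 1.46 and 1.75 FPKM in HFHG and 0.837, 0.720, 0.737 and 0.662 in LG. All HFHG libraries were higher, with a log2 fold change of 1.09 (SE 0.109, limma adjusted p 2.02e-06), past 2-fold and opposite to Socs3. Pias1 and Pias3, inhibitors of activated STAT proteins, rose by log2 fold changes of 0.54 and 0.52. Ptpn1, a tyrosine phosphatase, rose by 0.47 on the same scale.

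Genes that regulate Il6 transcription or decay of its mRNA were called in both directions, with 5 of 12 higher, 4 lower and 3 not called, a share of 75.0% called beside 64.8% of all genes. Zfp36l1, an RNA-binding protein that promotes mRNA decay, was at 84.7, 87.9, 84.7 and 85.0 FPKM in HFHG and at 44.6, 46.4, 46.3 and 46.5 in LG. The groups lay far apart (log2 fold change 0.90, SE 0.0263, limma adjusted p 1.87e-11). Zc3h12a, which encodes Regnase-1, an RNase that cleaves Il6 mRNA, rose from 30.2 ± 1.08 to 44.4 ± 1.93 FPKM (log2 fold change 0.56, limma adjusted p 4.99e-08). Cebpd and Nfkbiz, transcription regulators that act on Il6, each rose by 0.54 on the log2 scale. The 4 lower genes, named after their values were seen, were Arid5a, Khsrp, Cebpb and Rela, and 1 gene of the list was called lower when every library was scaled to the same sum.

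STAT3 target genes were called in nearly equal numbers each way. Of 26 tested, 12 were higher, 12 lower and 2 not called, with a median log2 fold change of -0.05, and 92.3% were called beside 64.8% of all genes. Socs3 and Osmr are also on this list. The higher genes were Fos, Pim3, Cebpd, Icam1, Saa3, Lcn2, Hp, Lbp, Il4ra, Serpina3n, Steap4 and Il1r1. The lower genes were Socs3, Bcl3, Junb, Myc, Mcl1, Bcl2l1, Pim1, Cebpb, Osmr, Ccnd1, Fosl1 and Tnfrsf12a. Lbp, a binding protein for bacterial lipopolysaccharide, had the largest rise, from 13.0 ± 0.536 to 29.8 ± 0.888 FPKM (log2 fold change 1.19, limma adjusted p 5.51e-11). Serpina3n, an acute phase protease inhibitor, rose from 35.9 ± 1.78 to 77.2 ± 1.66 FPKM (log2 fold change 1.10). Steap4, a metalloreductase, rose by 0.86 on the log2 scale. Myc, a driver of cell growth, was at 9.92 ± 0.994 FPKM in HFHG and 20.4 ± 0.974 in LG, a log2 fold change of -1.04 (limma adjusted p 2.18e-08).

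**Figure D4:**
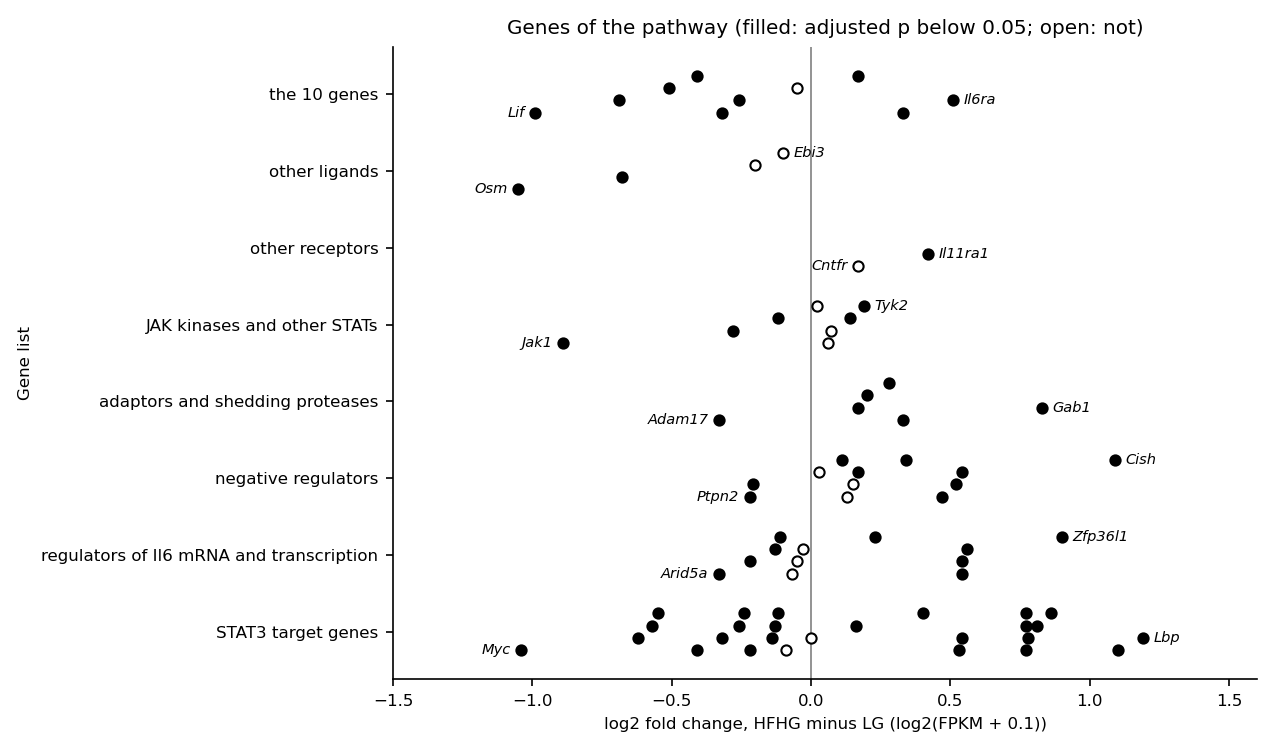
The log2 fold change (x axis, HFHG minus LG on log2(FPKM + 0.1)) of the tested genes among the 10 genes and the 7 pathway lists (y axis), without the 2 list genes not reported here. Each point is a gene, filled where the limma adjusted p is below 0.05, and the lowest and highest drawn of each list are named; most lists hold genes on both sides of 0.

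The labelled cell type was checked with 12 tendon markers, all of them expressed, of which Bgn was the most abundant at 1671 ± 15.0 FPKM in HFHG and 1390.3 ± 30.4 in LG. The tendon lineage genes Scx and Tnmd, named after their values were seen, were low, at 2.27 ± 0.558 and 1.10 ± 0.0908 FPKM in HFHG and 1.45 ± 0.336 and 0.614 ± 0.298 in LG. Both were called higher in HFHG (log2 fold changes 0.61 and 0.86, limma adjusted p 0.0138 and 0.0164), though the groups overlapped for Scx. The paper reports the opposite direction for both mRNAs by quantitative PCR, with no culture time given for it. Of the tested tendon markers, 9 were higher in HFHG, 2 lower and 1 not called. The share called was 91.7%, beside 64.8% of all genes tested (34.0% higher and 30.8% lower). The summed FPKM of the tendon markers was 4408 to 4458 in HFHG and 3135 to 3173 in LG. Macrophage markers were present in both groups. Their summed FPKM was 1755 to 1804 in HFHG and 1917 to 2003 in LG, nearly all of it from Lyz2 at 1637 ± 19.4 and 1765 ± 32.6. Of 10 macrophage markers, 9 were tested, with 1 higher, 7 lower and 1 not called. Here 88.9% were called, beside the same 64.8% of all genes tested. The sum hides larger falls of scarcer markers, named after their values were seen. C1qa, Itgam, C1qb and Adgre1 had log2 fold changes of -0.97, -0.69, -0.68 and -0.52, beside -0.11 for Lyz2. Cd14 was the 1 higher marker, at 0.26. No macrophage marker was at 0 in all libraries. Cd163, the marker below the limit of the test, was at 0.0231 ± 0.0141 FPKM in HFHG and 0.0252 ± 0.0120 in LG. Most of these markers moved in the same direction as Osm, Lif, Il11, Clcf1, Lifr, Osmr and Socs3, and their part in those results was not tested. Endothelial markers summed to 1.54 to 1.69 FPKM in HFHG and 1.86 to 2.18 in LG, led by Tek in HFHG and Vwf in LG. Skeletal muscle markers summed to 0.759 to 1.70 and 3.19 to 4.06, most of it Acta1, and lymphocyte markers, led by Cd79a, to at most 0.175 and 0.253.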

How the data were processed

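The samples were 8 libraries of primary mouse TSCs, 4 HFHG and 4 LG, with groups and replicate numbers taken from the sample titles, and doses and time from the paper (25.5 mM glucose with 300 µM palmitic acid, or 5.5 mM glucose, for 4 days). Libraries were made with a stranded mRNA kit, but the strand setting of the counting is not given in the sources used here. The authors deposited FPKM values for 19301 genes, with replicates not pooled. The submitters' processing notes name HISAT2 2.1.0 and the mm10 build. The counting program, the annotation and the filters are not given in the sources used here, so the treatment of reads shared by near-identical or overlapping genes is unknown.

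The reads behind each FPKM were recovered by finding the library totals and gene lengths that give whole numbers of reads (tolerance 0.02 of a read) in all libraries. They served to describe depth and for the voom alternative. Read totals cover counting error only. The 11710 genes that reached an FPKM of 0.5 in 4 or more libraries were tested with limma 3.58.1 in R 4.3.3 (lmFit, eBayes with an intensity trend) on log2(FPKM + 0.1), with no covariate, with Benjamini-Hochberg adjustment over all of them. For single genes, an exact permutation test (two-sided) was run in Python 3.11.15. The recovery of reads and the limma fit were tested on simulated data. Gene symbols were looked up in GENCODE M21 (GRCm38) for positions, and in RefSeq (GRCm38.p6) for promoters.

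The genes and lists were chosen with earlier results of these data known. All 10 genes are named, up to 4 called genes of each pathway list by the size of the fold change, and the most abundant gene of each marker list; the full names of called STAT3 targets, Il11ra2, Cntfr, Stat5a and other genes said to be so were named after their values were seen. Alternatives were other pseudocounts, filters, scalings and variance models, voom, a replicate block and leaving out each library. Same-numbered libraries of the groups did not deviate together. The values of 2 list genes are not reported here, though the list counts include them. Planned motif searches in the proteins were not made.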

Additional observations from a re-analysis of the deposited data

Results flagged for a closer look

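Zfp36l1 stood out in both groups by a single library. In HFHG, replicate 2 was the highest at 87.9 FPKM, with the other 3 libraries at 84.7 to 85.0, a gap of 0.907 of the group's range. In LG, replicate 1 was the lowest at 44.6 FPKM, with the others at 46.3 to 46.5, a gap of 0.909 of the range. Both exceed the 95% critical value of Dixon's test for 4 samples. They were 2 of 68 groups looked at (34 genes in each of the media), and chance gives about 1 in 20. The distance between the groups was many times either gap.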

How the results depend on the processing

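In all 19 alternative fits 3 of the 10 genes were higher and 6 lower, except that median-ratio scaling also called Stat3 lower (log2 fold change -0.09, adjusted p 0.0150); scaling every library to the same sum put Stat3 at 0.01. Il6 ranged from 0.13 to 0.23 (adjusted p 0.000207 to 0.0101), Lif from -1.03 to -0.89 and Il6ra from 0.33 to 0.60; with a pseudocount of 1, Il6ra was 0.33, Osm -0.52, Gab1 0.45 and Cish 0.62. The replicate numbers did not pair the samples (correlation of same-numbered deviations -0.0736 to -0.00558), and with the replicate block 3841 genes were higher and 3501 lower, against 3983 and 3609, and only 1 JAK or STAT gene was higher in place of 3. That count was also 1 with median-ratio scaling and quantile normalization and 1 to 3 with each library left out, with 1 without HFHG replicate 2, HFHG replicate 4 or LG replicate 3. Other ligands lower were 1 in place of 2 at a minimum FPKM of 1, which removes Osm. With the same sum, 1 negative regulator in place of 2 and 1 regulator of Il6 mRNA in place of 4 were lower; the latter were 2 with no filter on low values and 2 to 4 with each library left out, with 2 without HFHG replicate 3 or HFHG replicate 4. Tyk2 lost its call in 9 alternatives, with adjusted p from 0.0165 to 0.199 over all. The share of higher among called genes was 52.5%, 46.7% with median-ratio scaling and 60.9% with the same sum. With voom on the recovered reads, 4104 genes were higher and 3678 lower. Where no construction shows it, the cause was not tested. Osm rests on 26 to 101 reads in a library and Cntf on 36 to 72.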

Other observations

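Among the genes below the level needed for the test, A2m, an acute phase gene on the STAT3 target list, was at 0.199, 0.210, 0.172 and 0.220 FPKM in HFHG and 0.0632, 0.0683, 0.127 and 0.0871 in LG, with 40 to 52 and 14 to 29 reads, so the groups did not overlap at this low level. Il11ra2, the copy of Il11ra1, was at 0.404 FPKM in HFHG replicate 3, which held 44 of its 56 HFHG reads, and at 0 to 0.137 in the 7 other libraries, so its groups overlapped. Both were chosen after their values were seen.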
